A study of Mus musculus with 16 samples.

Results

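The genes described here encode the subunits of the proteasome, its regulatory caps and the chaperones that assemble it, in RNA libraries of lung and liver from newborn mice with or without a deletion in Man1a2. Members were the rows of the deposited count table whose symbol began with Psma, Psmb, Psmc, Psmd, Psme, Psmf or Psmg followed by a number. Of 25054 gene entries, 50 fitted this pattern, the interacting protein Psmc3ip was left out, no pseudogene symbol fitted it, and 49 genes remained. The 3 immunoproteasome subunits Psmb8, Psmb9 and Psmb10 were also followed separately.

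The pups were C57BL/6J offspring of heterozygous parents, and the parents drank N-acetyl cysteine (NAC, an antioxidant and glutathione precursor) at up to 1 g/kg body weight or plain water as placebo, from before mating until the pups were delivered. Pups fell into 4 groups: live wild-type (WT), live Man1a2 +/-, dead Man1a2 +/- and dead Man1a2 -/-, where dead pups had died within the 24 h during which litters were checked every 8 h. The Man1a2 allele lacks the second exon of an enzyme that trims mannose from glycoproteins. Each pup group, treatment and tissue label had 1 library, made from RNA pooled over 3 independent experiments (2 for dead Man1a2 +/-), so that the 16 libraries held no replicate of any one condition. Comparisons therefore rest on sets of libraries. Their p-values measure the spread between pooled libraries that remains after the terms of each fit. Differences between pup groups enter that spread only in fits without a pup group term. Man1a2 itself was counted over the whole gene at 29.7 to 75.4 CPM in all libraries and at 34.3, 34.9, 49.4 and 60.3 CPM in the 4 Man1a2 -/- libraries, so these counts do not check the genotype labels.

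In 8 libraries the marker genes went against the tissue label, and libraries were therefore grouped by what they contained. Lung-content libraries had a raw Sftpc (surfactant protein C) level of at least 1000 CPM with Alb (albumin) under 1000 CPM, liver-content libraries had Alb of at least 50000 CPM, and the rest was called mixed. This gave 7 lung-content libraries, of which 4 were labelled liver, 8 liver-content libraries, of which 4 were labelled lung, and 1 mixed library, the dead Man1a2 -/- placebo library labelled lung, with Sftpc at 5553 CPM and Alb at 9280 CPM. Summed lung epithelial markers (10 genes) reached 10176 to 16598 CPM in lung-content and 58.5 to 88.9 CPM in liver-content libraries, and summed hepatocyte markers (10 genes) 24.5 to 229 CPM and 156776 to 256286 CPM. Endothelial markers (6 genes) summed to 1343 to 2010 CPM and 265 to 502 CPM, and erythroid markers to 4757 to 12256 CPM and 8524 to 47136 CPM. In the test described below, 10 of 10 lung epithelial and 5 of 6 endothelial markers were higher in lung-content libraries, and 10 of 10 hepatocyte, 10 of 10 erythroid and 8 of 9 leukocyte markers were lower. Within 1 pup group and content, the NAC and the placebo library always carried different tissue labels, so treatment and label cannot be told apart there. Both NAC libraries from Man1a2 -/- pups were liver-content, and the placebo ones were lung-content (labelled liver) and mixed (labelled lung). Exchanging tissue labels within a treatment would not make both of these NAC libraries match their labels. Whether treatment or pup group labels are also affected was not tested, and the comparisons below take those labels as given. Lung-content libraries also had fewer reads (7236910 to 11808800 counts against 14115800 to 16107800) and more of them on Rn45s, the ribosomal RNA precursor (4.05 to 26.2% against 0.845 to 6.29%).

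As background, the proteasome is the cell's main protease for proteins tagged with ubiquitin. Its core is a barrel of stacked alpha and beta rings with the proteolytic sites of Psmb6, Psmb7 and Psmb5 on the inside, and its cap consists of a base with a ring of ATPases that unfold the substrate and a lid that removes the ubiquitin. In leukocytes and in cells exposed to interferon, Psmb9, Psmb10 and Psmb8 replace the 3 proteolytic subunits and form the immunoproteasome, whose products feed the display of peptides on MHC class I molecules. When proteasome activity falls short, the transcription factor Nfe2l1 raises most subunit genes together through an antioxidant response element in their promoters.

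Since the members moved largely together in the results below, 250 bases before each start were searched in the RefSeq promoter table (GRCm38.p6), which held 44 entries for 41 of the 49 members. The letters TGACNNNGC, a short form of the antioxidant response element, were found on either strand in 5 of the 44 entries (11.4%) and in 10.2% of all 32851 entries, so the motif was about as frequent among the members as in the table as a whole. The CCAAT box stood in 31.8% of member entries and 33.8% of all, the interferon-type letters GAAANNGAA in 6.82% and 7.13%, and the letters TTCNNNGAA in 4.55% and 7.02%. The stretches of 100 bases below are those of 2 constitutive proteolytic subunits that hold TGACNNNGC (capitals), of Psmd9, the member with the largest difference in level, which also holds it, of the immunoproteasome subunit Psmb8, which holds TTCNNNGAA (capitals), and of Psmb9 and the activator Psme4, which hold neither. They lie at chr14:54617996-54618095 (minus strand) for Psmb5, chr11:70525257-70525356 (plus strand) for Psmb6, chr5:123228090-123228189 (plus strand) for Psmd9, chr17:34198053-34198152 (plus strand) for Psmb8, chr17:34187331-34187430 (minus strand) for Psmb9 and chr11:30771675-30771774 (plus strand) for Psme4.
Psmb5: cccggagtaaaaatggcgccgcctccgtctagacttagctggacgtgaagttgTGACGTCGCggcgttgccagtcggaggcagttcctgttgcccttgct
Psmb6: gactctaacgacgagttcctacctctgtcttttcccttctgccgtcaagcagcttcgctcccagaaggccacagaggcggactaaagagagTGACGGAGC
Psmd9: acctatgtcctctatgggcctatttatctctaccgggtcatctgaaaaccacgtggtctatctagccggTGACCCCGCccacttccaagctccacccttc
Psmb8: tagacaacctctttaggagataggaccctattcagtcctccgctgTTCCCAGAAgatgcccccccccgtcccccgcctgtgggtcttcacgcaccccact
Psmb9: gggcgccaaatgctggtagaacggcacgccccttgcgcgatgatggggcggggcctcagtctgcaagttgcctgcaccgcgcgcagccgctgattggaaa
Psme4: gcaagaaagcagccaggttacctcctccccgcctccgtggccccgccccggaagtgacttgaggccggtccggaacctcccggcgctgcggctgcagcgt

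The Psmb8 stretch covers bases 142 to 43 before the RefSeq start, and the others end at the base before it. In Psmb6 the motif ended at the base before the RefSeq start, in Psmb5 it lay 47 to 39 bases and in Psmd9 31 to 23 bases before it, and in Psmb8 the capitals lay 97 to 89 bases before it. The RefSeq start of Psmd9 lies 58777 bases inside the gene as GENCODE draws it, that of Psmb8 474 bases and that of Psmb9 434 bases. The stretches printed for Psmd9, Psmb8 and Psmb9 thus lie inside the genes and may not be the promoters in use. Psmc6 and Psmd12 held TGACNNNGC farther out. The letters TTCNNNGAA read the same on both strands and also stood before Psmg1. A match of letters is a description and not a measured binding site. On chromosome 17, Psmb9 (34181987 to 34187764, minus strand) and Psmb8 (34197721 to 34201454, plus strand) are neighbours in the GENCODE annotation of GRCm38, and an exon of Psmb9 shares 212 bases with Tap1, the peptide transporter gene on the other strand. In all, 14 members share exon bases with another annotated gene, 11 of them with a gene on the opposite strand. How the authors' counting used strand is not given in the sources used here, so such reads may be split between neighbours.

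Per kilobase of the principal transcript, Psmb6, the caspase-like proteolytic subunit, had the highest median of all members in both contents, at 80.5 CPM per kb in lung-content libraries (range 73.3 to 90.02) and 154 CPM per kb in liver-content libraries (121 to 232). Psmb4, a structural beta subunit, followed in liver-content libraries at 118 CPM per kb (86.3 to 160), and its range overlapped that of Psmb6. The proteolytic subunits Psmb7 and Psmb5 had medians of 118 and 80.3 CPM per kb in liver-content and 48.1 and 45.2 CPM per kb in lung-content libraries. Among alpha subunits Psma7 was highest (59.2 and 114 CPM per kb in lung-content and liver-content) and Psma3 and Psma2 lowest, at 21.1 CPM per kb in lung-content and 39.2 CPM per kb in liver-content libraries. The ATPases of the base had their lowest medians for Psmc6 at 22.9 and 44.5 CPM per kb and their highest for Psmc3 at 42.6 (lung-content) and Psmc1 at 82.9 CPM per kb (liver-content). In the lid, Psmd8 was highest at 65.4 and 101 CPM per kb and Psmd11 lowest at 12.2 and 24.6 CPM per kb.

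The immunoproteasome subunits were far below their constitutive counterparts on this scale. Psmb10 had medians of 11.2 and 24.5 CPM per kb in lung-content and liver-content libraries, Psmb8 of 7.03 and 15.3, and Psmb9 of 1.69 and 6.86. Assembly chaperones were also low in lung-content libraries, from 5.0045 (Psmd5) to 8.62 CPM per kb (Psmd9), whereas Psmd9 reached 42.3 CPM per kb in liver-content libraries. The 2 tissue-restricted core subunits were nearly silent: Psma8, the testis alpha subunit, had medians of 0.0525 and 0.840 CPM per kb, and Psmb11, the thymus subunit, had a median of 0 in both contents and no count in any lung-content library. These values depend on the choice of transcript.

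The members were lower in lung-content than in liver-content libraries when libraries were scaled by the trimmed mean of M values (TMM), which treats most genes as unchanged. Of the 47 members that reached a mean of 1 CPM, 45 were lower in the 7 lung-content libraries than in the 8 liver-content libraries, none was higher, and Psme4 and Psme2b did not pass an adjusted p under 0.05 (edgeR quasi-likelihood test with terms for pup group and treatment, Benjamini-Hochberg over 14175 genes). Among all genes tested, 39.2% were lower in lung-content libraries. For 41 of the 47 members every lung-content value lay below every liver-content value, against 26.3% of all genes. The median log2 fold change of the members was -0.96, and that of all genes -0.09. Assembly chaperones and immunoproteasome subunits had medians of -1.35 and -1.38, and the lid had the smallest of the larger groups at -0.86.

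The size of this difference depended on the scaling between libraries. With relative log expression scaling 44 members were lower, where 36.7% of all genes were. With library size alone 20 were lower and 2 higher (22.4% and 51.9% of all genes). With library size after leaving out Rn45s, an alternative added after seeing the data, 9 of 47 were lower and 2 higher, and the lower ones were then no larger a share than among all genes (19.6% lower, 58.1% higher). The median of all genes moved with the scaling too, to 0.56 with library size alone and 0.76 without Rn45s, and the share of called genes that were lower fell from 52.9% to 30.1% and 25.2%. Relative to the median of all genes, the median of the members was -0.87 with TMM, and 46 of the 47 members lay below the all-gene median. A scaling shifts the log2 fold changes of all genes by about the same amount, so this relative value does not test the choice of scaling, and the absolute direction of the members depended on it. The 9 genes lower under each of the 4 scalings were Psmd9, Psmg1, Psmb9, Psmg4, Psme3, Psma5, Psmd14, Psmf1 and Psmb7. Using the 7 libraries whose markers match their label, 26 of 47 members were lower and none higher. Using the 8 whose markers go against it, 44 were lower and 1 was higher. Of all genes, 49.2% and 66.1% were called in either direction in these subsets, and the share called lower is not given here.

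**Figure D1:**
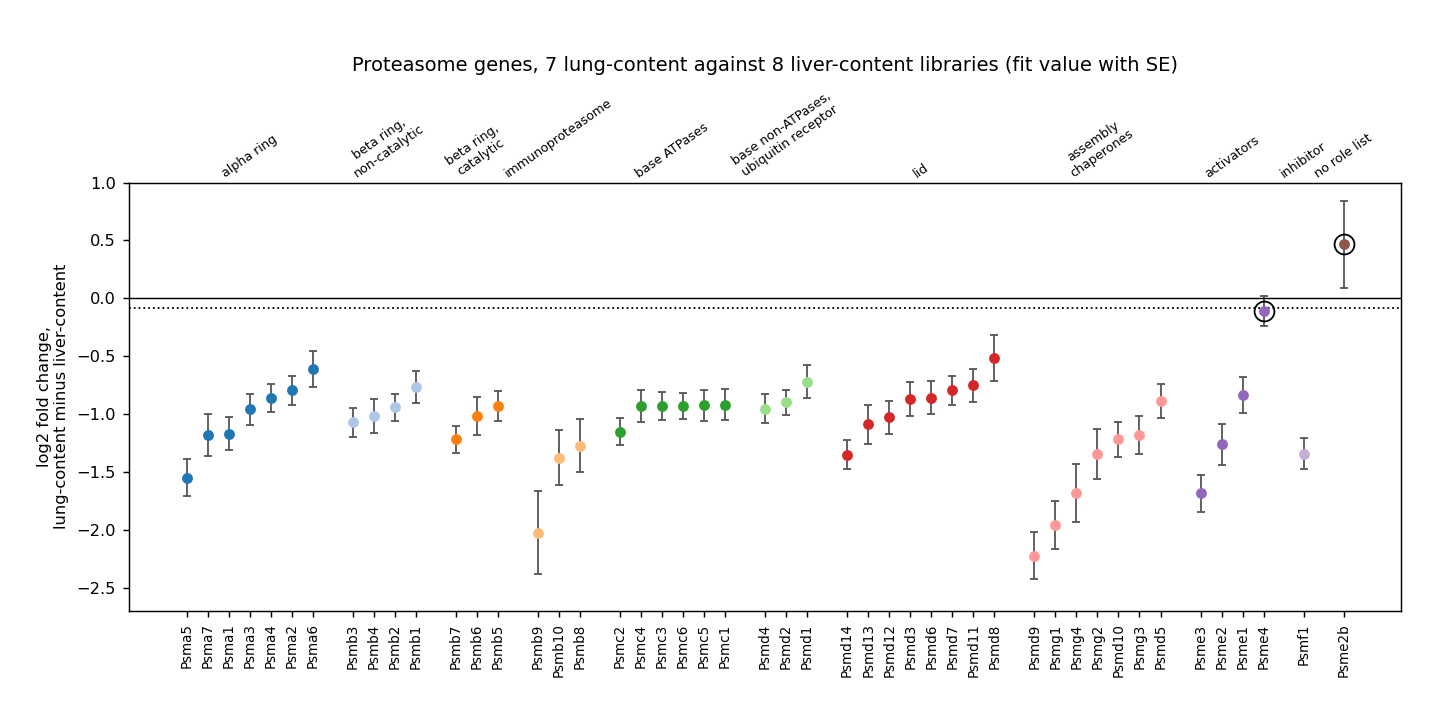
Log2 fold change (vertical axis) of each of the 47 tested proteasome genes between 7 lung-content and 8 liver-content libraries after TMM scaling, ordered by role; bars are standard errors, the dotted line is the median of all genes (-0.09) and rings mark the genes that did not pass the test. All but Psme2b lie below the dotted line, and Psmd9 at -2.22 is the lowest.

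Summed over the 49 genes, TMM-scaled levels ran from 1975 to 2514 CPM in lung-content libraries and from 3689 to 4975 CPM in liver-content libraries, and the mixed library had 2324 CPM. As plain CPM of each library's own total, the same sums ran from 2292 to 3267 CPM and from 2802 to 4214 CPM and overlapped. Without Rn45s in the total they ran from 2830 to 3447 CPM and from 2837 to 4497 CPM. The lung-content library with the highest TMM-scaled sum, live Man1a2 +/- with NAC labelled lung, was also the one with the fewest reads and the most Rn45s, and the part of these in its sum was not tested.

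**Figure D2:**
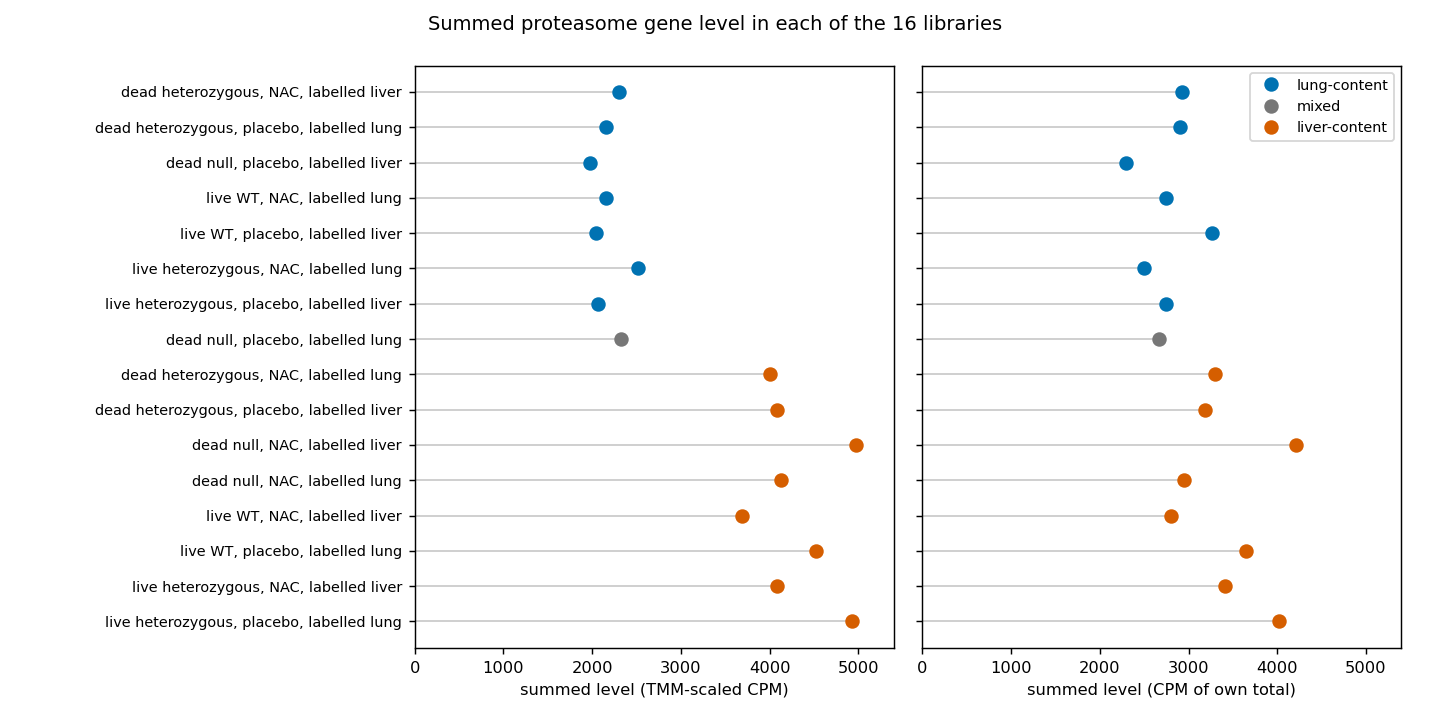
Summed level of the 49 proteasome genes (horizontal axes) in each of the 16 libraries, as TMM-scaled CPM on the left and as CPM of each library's own total on the right, coloured by marker content. The lung-content and liver-content libraries are apart on the left (up to 2514 against at least 3689 CPM) and overlap on the right.

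All 7 constitutive alpha subunits, which form the outer rings and gate the entrance of the core, were lower in lung-content libraries on the TMM scale. Psma5 had the largest difference, at 30.1 to 36.4 CPM (median 33.4) in lung-content and 69.9 to 135 CPM (median 91.9) in liver-content libraries (log2 fold change -1.55, SE 0.16, adjusted p = 7.19e-07). Psma6 had the smallest, with values of 50.5 to 92.2 CPM and 78.3 to 117 CPM that overlapped (-0.61, SE 0.16, adjusted p = 0.00319), and its sign turned to 0.04 with library size alone. Lung-content values of Psma7 stayed within 50.9 to 57.4 CPM, while its liver-content values ran from 87.4 to 188 CPM. The 4 structural beta subunits had log2 fold changes between -1.07 (Psmb3) and -0.77 (Psmb1).

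The 3 constitutive proteolytic subunits were each lower in lung-content libraries without overlap on the TMM scale. Psmb7, the trypsin-like subunit, had 52.0 to 72.1 CPM (median 55.8) against 118 to 154 CPM (median 137), a log2 fold change of -1.22 (SE 0.12, adjusted p = 4.17e-07). Psmb6 had 58.5 to 71.8 CPM against 96.5 to 185 CPM (-1.02, SE 0.16, adjusted p = 6.02e-05), and Psmb5, the chymotrypsin-like subunit, 36.5 to 43.7 CPM against 61.98 to 94.9 CPM (-0.93, SE 0.13, adjusted p = 1.54e-05). Liver-content libraries thus spread more widely for Psmb6 and Psmb5 than lung-content libraries did. With library size alone Psmb6 (-0.37, adjusted p = 0.101) and Psmb5 (-0.28, adjusted p = 0.140) did not pass the test, and Psmb7 did (-0.57, adjusted p = 0.0011).

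The 3 immunoproteasome subunits were lower in lung-content libraries too. Psmb9 had 0.836 to 4.03 CPM (median 2.29) in lung-content and 4.95 to 15.3 CPM (median 9.27) in liver-content libraries (log2 fold change -2.03, SE 0.36, adjusted p = 0.000158). Psmb10 had 6.41 to 15.5 CPM and 20.7 to 43.3 CPM (-1.38, SE 0.24, adjusted p = 0.000122), and Psmb8 8.36 to 15.1 CPM and 17.0 to 43.3 CPM (-1.27, SE 0.23, adjusted p = 0.000195). No lung-content value of these genes reached a liver-content one on the TMM scale, but with library size alone Psmb8 did not pass the test (adjusted p = 0.0663). Markers of leukocytes, which carry immunoproteasomes, were also higher in liver-content libraries: 8 of 10 had a higher median there, and their summed level was 1376 to 2376 CPM against 501 to 1360 CPM. The part of these cells in the immunoproteasome values was not tested, and in whole tissue fewer cells of a type and less RNA per cell cannot be told apart.

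Ratios within a library do not depend on the scaling between libraries. Psmb9 counts were 0.0118 to 0.0627 of Psmb6 counts in lung-content and 0.0448 to 0.0827 in liver-content libraries, with medians of 0.0366 and 0.0734 and an overlap of the groups. Psmb8 counts were 0.194 to 0.373 and 0.275 to 0.460 of Psmb5 counts. Psmb10 over Psmb7 had close medians, 0.249 and 0.237. The lowest ratio of all 3 pairs among the lung-content libraries belonged to the live Man1a2 +/- NAC library labelled lung, with 0.0118, 0.194 and 0.0888.

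**Figure D3:**
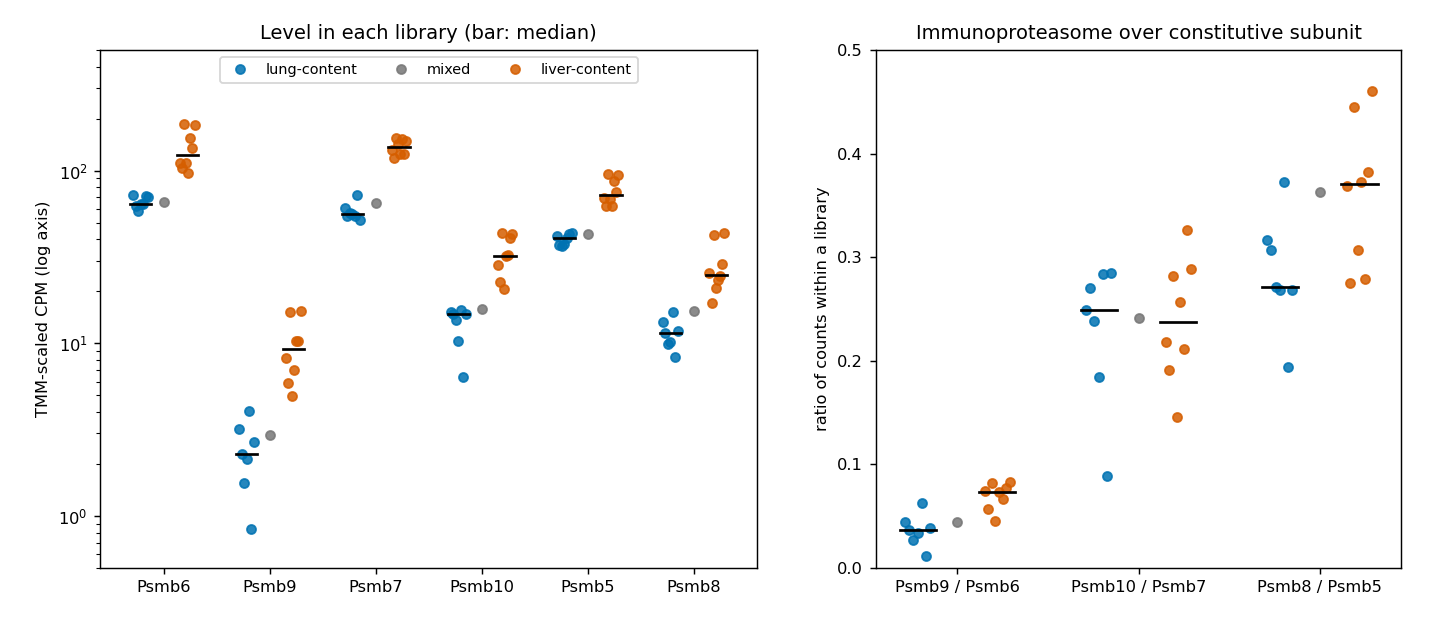
Left, TMM-scaled CPM (log axis) of the 3 constitutive proteolytic subunits and the 3 immunoproteasome subunits in each library, with medians of lung-content and liver-content libraries as bars; right, the ratio of counts of each immunoproteasome subunit to the subunit it replaces. Levels of the 6 genes are apart between lung-content and liver-content libraries, and all 3 ratios overlap.

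In the base, the 6 ATPases had nearly the same difference after TMM scaling, from -0.92 (Psmc1) to -1.15 (Psmc2) on the log2 scale. Psmc2 had 38.4 to 53.9 CPM in lung-content and 80.0 to 116 CPM in liver-content libraries (SE 0.12, adjusted p = 7e-07). Psmc6 stayed within 91.4 to 105 CPM in liver-content libraries and had 41.2 to 66.6 CPM in lung-content libraries (-0.93, SE 0.11). Of the base's scaffold and receptor subunits, the ubiquitin receptor Psmd4 had a log2 fold change of -0.95 (SE 0.13) and the large scaffold Psmd1 -0.72 (SE 0.14). The lung-content values of Psmd1 reached 132 CPM in the live Man1a2 +/- NAC library labelled lung, against 72.5 to 97.99 CPM in the other 6, and overlapped the liver-content values of 125 to 172 CPM.

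All 8 lid subunits were lower in lung-content libraries on the TMM scale. The deubiquitinase Psmd14 had the largest difference, at 21.1 to 34.7 CPM against 62.4 to 82.8 CPM (log2 fold change -1.35, SE 0.12, adjusted p = 2.61e-07). Psmd8 had the smallest, at 92.98 to 184 CPM against 120 to 289 CPM (-0.51, SE 0.20, adjusted p = 0.0290). Psmd8 overlapped between contents, did not pass with relative log expression scaling (adjusted p = 0.0664), turned to 0.14 with library size alone, and lost its call without any one of 6 libraries: dead Man1a2 -/- placebo labelled liver (-0.39, adjusted p = 0.111), both dead Man1a2 +/- placebo libraries, both live Man1a2 +/- placebo libraries, or live WT placebo labelled lung.

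The assembly chaperones, which build the core and the base and then leave, held 3 of the 5 largest differences. Psmd9, a base chaperone, had 18.1 to 32.7 CPM (median 22.4) in lung-content and 75.9 to 183 CPM (median 110) in liver-content libraries (log2 fold change -2.22, SE 0.20, adjusted p = 2.54e-07), and the mixed library had 50.2 CPM. Some of its annotated exon bases (1849) lie opposite a long noncoding RNA. The core chaperones Psmg1 and Psmg4 had -1.96 (SE 0.21) and -1.68 (SE 0.25), at 4.31 to 7.71 CPM against 13.2 to 31.3 CPM and 1.95 to 3.39 CPM against 5.65 to 14.8 CPM. Psmd5 had the smallest difference of the 7 (-0.89, SE 0.15) and its groups overlapped. As a share of the reads of all 49 members, which no scaling touches, the chaperones had 3.01 to 4.12% in lung-content and 4.73 to 6.97% in liver-content libraries, the only one of the 11 role lists whose shares did not overlap. Psmd9 carried this separation: the other 6 chaperones each overlapped, and together they had 1.71 to 3.17% and 2.22 to 3.34%.

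The activators, caps that open the core without ubiquitin, did not move as one. Psme3, the nuclear activator, had 48.3 to 72.3 CPM in lung-content and 111 to 267 CPM in liver-content libraries (log2 fold change -1.69, SE 0.16, adjusted p = 3.63e-07), and the interferon-responsive pair Psme1 and Psme2 had -0.83 (SE 0.15) and -1.26 (SE 0.18). Psme4, the large activator known from spermatids, was nearly level, at 81.4 to 101 CPM and 60.3 to 111 CPM (-0.11, SE 0.13, adjusted p = 0.451), and with library size alone it was higher in lung-content libraries (0.53, adjusted p = 0.0071). Its share of the members' reads was 3.68 to 4.70% in lung-content and 1.46 to 2.99% in liver-content libraries, without overlap, and Psma5 and Psmd9 were the 2 members whose shares lay wholly lower in lung-content libraries. The inhibitor Psmf1 had 20.3 to 30.1 CPM and 53.3 to 83.5 CPM (-1.34, SE 0.14). Psme2b, a near copy of Psme2 that may share its reads, had 0.622 to 2.65 CPM and 0.776 to 1.83 CPM (0.47, SE 0.38, adjusted p = 0.278).

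Within the liver-content libraries, several members varied by about as much as the contents differed. Psma7 was at 142, 188 and 184 CPM in live WT placebo labelled lung, live Man1a2 +/- placebo labelled lung and dead Man1a2 -/- NAC labelled liver, and at 87.4 to 110 CPM in the other 5. These 3 libraries also had the highest liver-content values of Psmb6 (155, 185 and 185 CPM), Psmb5 and Psma5, and the lowest Psme3, at 158, 111 and 125 CPM against 176 to 267 CPM. The ratio of Psme3 to Psme1 counts was 1.39, 0.649 and 0.834 in them and 1.68 to 3.44 in the other 5. The erythroid marker list (10 genes), a sign of the blood formation that newborn liver carries out, summed to 19842, 8524 and 8700 CPM in the 3 libraries and to 36149 to 47136 CPM in the others. No test was made on libraries picked by their values, and the part of erythroid cells in these levels was not tested.

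Genes that work with the proteasome were read alongside it. Over all genes tested on the TMM scale, 39.2% were lower and 34.9% higher in lung-content libraries. Of 11 proteasome partners, 7 were lower and 1 higher, and Pomp, the chaperone that matures the core, had 31.3 to 42.04 CPM against 48.6 to 77.7 CPM (log2 fold change -0.83, SE 0.13, adjusted p = 4.86e-05). Of 15 genes of ubiquitin and delivery, 10 were lower and 1 higher. Of 12 regulators of proteasome genes, 5 were lower and 3 higher, shares near or below those of all genes. The higher ones were Nfe2l1, Nfe2l2 and Nfe2l3. Nfe2l1 had 118 to 140 CPM in lung-content and 75.9 to 97.3 CPM in liver-content libraries (0.64, SE 0.10, adjusted p = 5.77e-05), and Nfe2l2 had 57.2 to 226 CPM and 25.6 to 69.9 CPM (0.91, SE 0.31, adjusted p = 0.0171).

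In the list of interferon response and MHC class I, 15 of 18 genes were lower in lung-content libraries and none was higher, against 39.2% and 34.9% of all genes. Tap1 had 12.8 to 21.5 CPM against 20.1 to 28.7 CPM (log2 fold change -0.61, SE 0.14, adjusted p = 0.000999). Irf1 (0.01, SE 0.17, adjusted p = 0.941) and Tap2 (0.04, SE 0.12, adjusted p = 0.803) did not pass.

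NAC was compared with placebo among the libraries of 1 content, with a term for survival. In the 7 lung-content libraries (3 NAC, 4 placebo), 1 of 47 members was called, against 13.3% of all genes. An unadjusted p under 0.05 was found for 13 of the 47 members and for 4817 of all 13990 genes, a larger share. The lid subunit Psmd11 had 42.5, 56.5 and 58.9 CPM with NAC and 31.2, 31.9, 34.0 and 34.9 CPM with placebo (log2 fold change 0.68, SE 0.15, adjusted p = 0.0287). All 3 NAC values lay above the 4 placebo values. The call was lost without any one of 5 libraries (live Man1a2 +/- NAC, dead Man1a2 +/- NAC, or the placebo libraries of live WT, live Man1a2 +/- or dead Man1a2 +/- pups), with adjusted p between 0.0662 and 0.123, and with both forms of library size scaling (adjusted p = 0.197 and 0.0669). Without these libraries, in the order given, 0.00711, 15.1, 0, 0 and 0.25% of all genes were called. With library size alone 6.23% were called, and with library size without Rn45s 17.8%. The loss is thus largely shared with genes outside the members. Beside this, Rn45s took 8.16, 9.69 and 26.2% of counts in the NAC libraries and 4.05 to 19.7% in the placebo libraries. Of the markers tested, 2 of 9 erythroid and 2 of 8 leukocyte genes were called higher with NAC and none lower. The median log2 fold change was 0.34 for the erythroid list and -0.31 for the leukocyte list, so the leukocyte markers did not move as one. The parts of Rn45s and of these cells in the Psmd11 value were not tested.

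Other lid and base genes had either sign, and none passed the adjusted threshold. Psmd8 had 114, 132 and 184 CPM with NAC and 92.98 to 101 CPM with placebo (log2 fold change 0.57, SE 0.18, adjusted p = 0.0633), and Psmd1 97.5, 97.99 and 132 CPM and 72.5 to 81.3 CPM (0.48, SE 0.15, adjusted p = 0.0626). Psmd9 had 25.2 to 32.7 CPM and 18.1 to 22.4 CPM (0.49, SE 0.15, adjusted p = 0.0580). The lid genes Psmd13 (-0.38, SE 0.17) and Psmd14 (-0.28, SE 0.18) and the ATPase Psmc5 (-0.17, SE 0.13) had negative values and were lower with NAC in each of the 3 pup groups. Of the chaperones, Psmg2 had 3.48, 6.46 and 6.57 CPM with NAC and 7.35 to 10.5 CPM with placebo (-0.70, SE 0.26, adjusted p = 0.0999). With DESeq2, Psmd11, Psmd8 and Psmd1 were called higher (19.8% of all genes were called). With pup group as a block in place of survival, Psmd11, Psmd8 and Psmd9 were called higher and Psmd5 and Psmg2 lower (25.7%). Without the dead Man1a2 -/- placebo library labelled liver, 4 members were called higher and 3, Psmd13 among them, lower (29.3%).

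The proteolytic subunits differed little with NAC in lung-content libraries: log2 fold changes were 0.04 (SE 0.13) for Psmb5, 0.10 (SE 0.13) for Psmb6 and 0.21 (SE 0.14) for Psmb7, and -0.19 (SE 0.22) for Psmb8, -0.34 (SE 0.48) for Psmb9 and -0.45 (SE 0.24) for Psmb10. In the 8 liver-content libraries (5 NAC, 3 placebo) no member was called by edgeR or by DESeq2, against 0% of all genes with edgeR and 0.0077% with DESeq2. No member had an unadjusted p under 0.05 there, against 259 of all 12993 genes. Values there were -0.10 (SE 0.22) for Psmb5, -0.17 (SE 0.30) for Psmb6, -0.05 (SE 0.18) for Psmb7, 0.09 (SE 0.37) for Psmb8, -0.07 (SE 0.45) for Psmb9 and 0.16 (SE 0.28) for Psmb10. Median log2 fold changes of the members were 0.08 in lung-content and -0.11 in liver-content libraries.

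**Figure D4:**
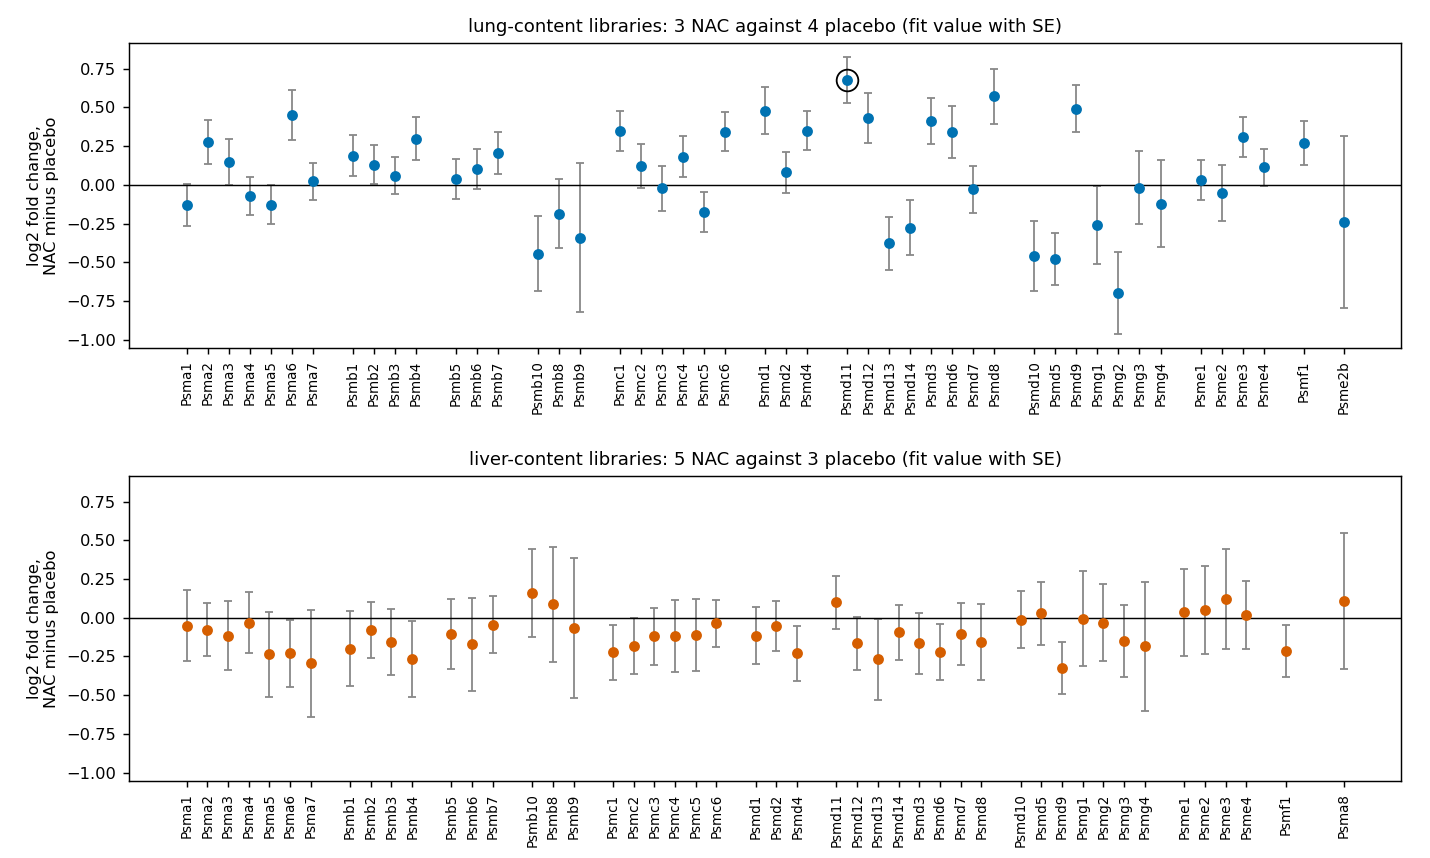
Log2 fold change, NAC minus placebo (vertical axes), of the tested proteasome genes in lung-content libraries (top, 3 NAC against 4 placebo) and liver-content libraries (bottom, 5 against 3), ordered by role, with standard errors. Psmd11 at 0.68 is circled as the only member past the threshold, and Psmg2 at -0.70 is the lowest point.

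Pup groups with both treatments in 1 content allow the same reading pup group by pup group. In lung-content libraries the members' summed level with NAC and placebo was 2160 and 2044 CPM in live WT, 2514 and 2065 CPM in live Man1a2 +/- and 2299 and 2152 CPM in dead Man1a2 +/- pups. In liver-content libraries it was 3689 and 4519, 4089 and 4927, and 4007 and 4087 CPM. Of the 47 members, 20 were higher with NAC in all 3 pup groups in lung-content libraries (28.7% of all genes were) and 9 lower (31.9%), and in liver-content libraries 1 was higher (17.3%) and 17 lower (18.4%). The difference of the NAC effect between contents was tested gene by gene as an interaction, and no member was called, against 0% of all genes. An unadjusted p under 0.05 was found for 11 of the 47 members and for 1945 of all 14175 genes. The largest difference belonged to Psmd9 (0.81, SE 0.22, adjusted p = 0.196), which DESeq2 called (adjusted p = 0.0294), along with 1.57% of all genes. For the proteolytic subunits this difference was 0.14 (Psmb5), 0.28 (Psmb6), 0.25 (Psmb7), -0.27 (Psmb8), -0.27 (Psmb9) and -0.61 (Psmb10).

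Dead and live pups were compared in the same way, with a term for treatment, and no member was called in either content by edgeR, against 0% of all genes in both. All WT libraries came from live pups and all Man1a2 -/- libraries from dead pups. Per the study, tissue was taken at death from dead pups and at 24 h from live ones. The fit had no term for genotype or age, so survival cannot be told apart from these in it. In liver-content libraries 2 members had an unadjusted p under 0.05, as did 664 of all 12993 genes, and the members' median was -0.01. Psmd9 had 118, 133, 144 and 183 CPM in the 4 libraries from dead pups and 75.9, 93.8, 94.6 and 101 CPM in the 4 from live pups (log2 fold change 0.73, SE 0.16, adjusted p = 0.702). DESeq2 called Psmd9 (adjusted p = 0.0106), along with 0.346% of all genes. Psmd8 had 145 to 289 CPM and 120 to 166 CPM (0.60, SE 0.24, adjusted p = 0.801). In lung-content libraries no member had an unadjusted p under 0.05, against 506 of all 13990 genes, and the members' median was 0.00. DESeq2 called no member there, against 0.143% of all genes. The difference of the dead effect between contents was called for no member, against 0.00705% of all genes. Only 1 member, Psmd9, had an unadjusted p under 0.05 (-0.84, SE 0.22, adjusted p = 0.886), as did 666 of all 14175 genes.

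The proteolytic subunits showed no call between dead and live pups. In liver-content libraries log2 fold changes were -0.08 (SE 0.22) for Psmb5, -0.10 (SE 0.29) for Psmb6, 0.00 (SE 0.18) for Psmb7, -0.21 (SE 0.36) for Psmb8, -0.30 (SE 0.44) for Psmb9 and -0.41 (SE 0.27) for Psmb10. In lung-content libraries Psmb10 had 0.28 (SE 0.24), and the other 5 lay between -0.09 and 0.01. The difference between contents ran from -0.01 (Psmb5) to 0.69 (Psmb10) over the 6 genes.

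When libraries were taken by their tissue label, with pup group as a block, no member was called between NAC and placebo in those labelled lung or in those labelled liver by edgeR or DESeq2. Of all genes, edgeR called 0% in both, and DESeq2 called 0.185% in those labelled lung and 5.11% in those labelled liver. Among libraries labelled liver, 46 of 47 members had a positive sign and their median log2 fold change was 0.60, and 3 of the 4 placebo libraries there were lung-content. Without either dead Man1a2 +/- library, the pair in which the contents were the other way round, 45 members were called higher, and treatment then coincided with content and 58.9 to 59.0% of all genes were called. Among libraries labelled lung the median was -0.18. Psmb5 to Psmb10 had values of 0.56 to 1.29 among libraries labelled liver and -0.88 to -0.03 among those labelled lung, with standard errors of 0.41 to 1.40.

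The 8 pairs of libraries that share a pup group and a tissue label differ in content in every case, and each has 1 library a side, so folds are given with no test. A member counted as past the fold at a log2 difference of 1 or more. Where NAC was lung-content and placebo liver-content, members were lower with NAC: 31 of 46 in live WT labelled lung (28.5% of all genes were lower and 27.5% higher), 27 of 47 in live Man1a2 +/- labelled lung (31.9% and 28.4%) and 11 of 47 in dead Man1a2 +/- labelled liver (25.8% and 26.1%), with medians of -1.18, -1.07 and -0.79. In that last pair 1 member, Psme2b, was higher past the fold. Where NAC was liver-content and placebo lung-content, members were higher with NAC: 14 of 47 in dead Man1a2 +/- labelled lung (25.3% of all genes were higher and 25.9% lower), 12 in live WT labelled liver (24.4% and 25.6%), where Psme2b was lower past the fold, 20 in live Man1a2 +/- labelled liver (25.1% and 25.3%) and 43 in dead Man1a2 -/- labelled liver (29.1% and 26.7%), with medians of 0.86, 0.77, 0.95 and 1.37. In dead Man1a2 -/- labelled lung, liver-content NAC against mixed placebo, 11 members were higher and 1 lower past the fold (22.1% and 24.9% of all genes), with a median of 0.76. The counts of 11, 12 and 14 members past the fold in 1 direction lay near the shares of all genes in that direction. These counts by themselves therefore do not set the members apart in those pairs. The median of all genes lay between -0.12 and 0.09 in the 8 pairs.

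The sign of the members in a pair therefore followed which of its libraries was liver-content, in libraries of either treatment. Psmb7, for example, had -1.45, -1.04 and -0.95 in the 3 pairs with a lung-content NAC library, 1.27, 1.18, 1.27 and 1.43 in the 4 with a lung-content placebo library, and 1.12 against the mixed one. Psmb9 had the widest range, from -4.17 in live Man1a2 +/- labelled lung, where the NAC library had 0.836 CPM, to 3.27 in dead Man1a2 -/- labelled liver. Psme4 had small values in several pairs, at -0.20 in live WT labelled lung, 0.18 in dead Man1a2 +/- labelled lung and 0.05 in dead Man1a2 -/- labelled liver.

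**Figure D5:**
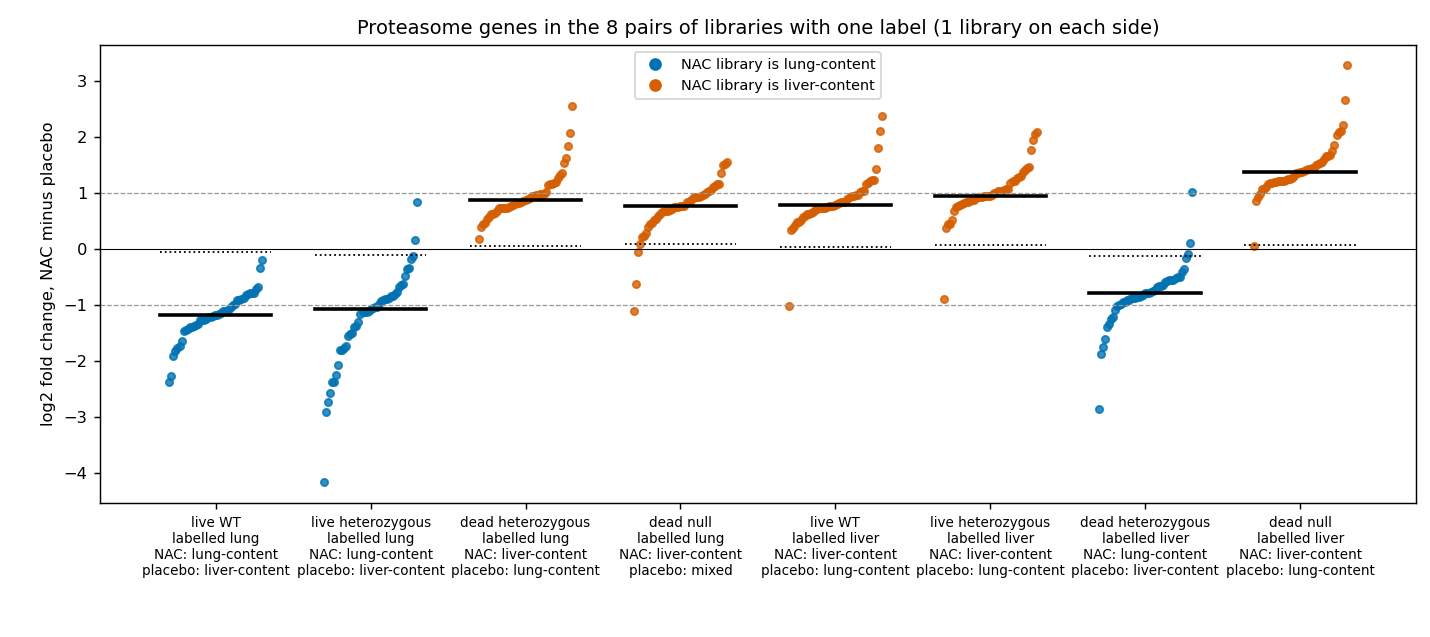
Log2 fold change, NAC minus placebo (vertical axis), of each tested proteasome gene in the 8 pairs of libraries that share a pup group and a tissue label, sorted within each pair and coloured by the content of the NAC library; thick bars are member medians, dotted bars all-gene medians, dashed lines the fold used, and heterozygous and null stand for Man1a2 +/- and Man1a2 -/-. Medians are below 0 in the 3 pairs with a lung-content NAC library (-1.18, -1.07 and -0.79) and above 0 in the other 5 (0.76 to 1.37).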

How the data were processed

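RNA of newborn lung and liver was sequenced from a stranded mRNA kit in 16 pooled libraries. Per the labels and the study's methods, the authors trimmed adapters, aligned reads to mouse build 38 with the Omicsoft aligner, kept uniquely mapped reads and deposited estimated counts per gene symbol, of which 6.50 to 8.24% per library were not whole. The submitters' processing notes also name R 4.0.3 and edgeR 3.30.3. The strand setting of the counting is not given in the sources used here. The table holds 25054 gene entries, and all its sample columns were mapped.

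Estimated counts were rounded and scaled by the trimmed mean of M values over the 16 libraries. Levels are CPM on this scale unless called raw. Genes averaging 1 CPM or more in the libraries of a fit were tested with edgeR 4.0.16 (R 4.3.3, quasi-likelihood F test), and a gene was called at a Benjamini-Hochberg adjusted p under 0.05. Each standard error (SE) is the absolute log2 fold change divided by the square root of the F statistic, and not a separate estimate. The comparison of contents had terms for pup group and treatment, those of NAC a term for survival, those of dead against live pups a term for treatment, and those by tissue label a term for pup group. Ratios of single pairs used a prior count of 0.125 and a log2 fold of 1. Contents were set from raw CPM of Sftpc and Alb. The scripts were tested on simulated data. Alternatives were relative log expression scaling, library size alone, no filter or a mean of 10 CPM, DESeq2 1.42.0, other covariates, subsets by label, leaving out each library and, added after seeing the data, library size without Rn45s. Positions and exon overlaps came from the GENCODE annotation of GRCm38, and promoter sequences from RefSeq (GRCm38.p6). No interval is given for single counts, and counting error is smallest in the deeper liver-content libraries.

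Psmb5 to Psmb10 were named in every comparison, together with the largest called change of each role list, members against their list's direction, and the highest and lowest levels. Psma7, Psmc6, Psmd4, Psmd8, Psmd9, Psme1 and Psme2 were in places named after their values were seen. The members and lists were chosen with earlier results of these data known.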

Additional observations from a re-analysis of the deposited data

Results flagged for a closer look

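In 7 of 96 checks of a member in the lung-content or the liver-content libraries, 1 library stood apart from the rest of its group by Dixon's test at the 95% level, and chance alone gives about 1 in 20. In the live Man1a2 +/- NAC library labelled lung, which had the fewest counts and the most Rn45s, 4 members were flagged as the highest of the 7 lung-content values. Further members, such as Psmd11 (58.9 CPM), Psmd3 (108 CPM) and Psma6 (92.2 CPM), were also highest in this library without being flagged. Psmd1 was at 132 CPM there (nearest value 97.99), Psmd6 at 49.4 CPM (35.7), Psmb1 at 93.3 CPM (77.8) and Psmc4 at 65.2 CPM (53.8). Psma8 was highest at 0.434 CPM in the live Man1a2 +/- placebo library labelled liver (nearest value 0.170), a level of few counts. In the dead Man1a2 -/- NAC library labelled lung, Psme4 was the lowest of the 8 liver-content values at 60.3 CPM (nearest value 93.8) and Psmg2 at 11.1 CPM (16.8).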

How the results depend on the processing

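The number of members called between lung-content and liver-content libraries was 45 and stayed between 44 and 45 when any one library was left out, but was 22 with library size alone, 11 with library size without Rn45s and 26 with only the libraries whose markers match their label. The sign turned with library size alone for Psme4 (0.53), Psmd8 (0.14) and Psma6 (0.037), and without Rn45s for Psme4 (0.72), Psmd8 (0.34), Psma6 (0.24), Psmd1 (0.12), Psmd11 (0.094), Psmb1 (0.075), Psma2 (0.054), Psmd7 (0.0502) and Psme1 (0.0058), 9 members in all. For NAC in lung-content libraries the 1 call became 0 with library size alone (6.23% of all genes were called), 2 with no filter (14.3%) and 3 with DESeq2 (19.8%). It became 5 with a pup group block (25.7%), and 0 to 7 when one library was left out (0 to 29.3%). DESeq2 gave 1 call where edgeR gave 0 for dead against live in liver-content libraries (0.346% of all genes) and for the difference of the NAC effect (1.57%). Among libraries labelled liver, leaving out one gave 0 to 45 calls (0 to 59% of all genes). With library size alone, members past the fold fell from 31 to 6 (live WT) and 14 to 3 (dead Man1a2 +/-) and 12 to 2 (dead Man1a2 -/-) in pairs labelled lung, where live Man1a2 +/- went from 27 to 19, and from 13 to 3 (live WT), 20 to 5 (live Man1a2 +/-), 12 to 4 (dead Man1a2 +/-) and 43 to 16 (dead Man1a2 -/-) in pairs labelled liver. These pair counts join both directions. The share of all genes past the fold with library size alone was not worked out, so the counts do not set the members apart. The causes of the changes with processing were not tested. Replicate numbers could not pair libraries, since each pup group, treatment and label had 1 library, and the pairing by pup group is the block given above. Lung-content libraries had fewer counts than liver-content ones, which limits low members such as Psmb9 most.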
